A study of Arabidopsis thaliana with 4 samples.

Results

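Of 26555 nuclear protein-coding genes tested, the 300 genes described here were those whose RNA polymerase II (RNA Pol II) signal over the whole gene was most raised in hyl1-2 compared with WT. For each gene, the read rate (RPM, the reads of the gene scaled to the total of the library) in the RNA Pol II chromatin immunoprecipitation (ChIP) library was divided by the RPM in the input library of the same genotype, and this ratio in hyl1-2 was divided by the ratio in WT to give the fold change. The genes were ranked by the lower end of the 95% counting interval of the fold change, and the 300 highest were taken. Of 27444 nuclear protein-coding genes, 889 had fewer than 50 reads in at least 1 library and were not ranked, so all 300 members had at least 50 reads in each library. The fold changes and ratios chose the genes. They are therefore given as a description, without a test.

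The 4 libraries came from leaves of 21-day-old Arabidopsis thaliana grown on soil, 1 input and 1 ChIP library from WT (Col-0) and 1 of each from hyl1-2, a knock-out with a T-DNA insertion in HYPONASTIC LEAVES 1 (HYL1). The antibody recognised the repeats of the C-terminal domain of the largest subunit of RNA Pol II and was used for total RNA Pol II. With 1 library per genotype and kind there are no replicates. The intervals of the fold changes cover counting error only. Since reads carried no molecular identifiers, they cannot be taken as independent molecules. A difference between plants of the same genotype, a difference in the efficiency of the precipitation and an effect of the mutation cannot be told apart, and neither can more nuclei with RNA Pol II on a gene and more RNA Pol II per nucleus.

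RNA Pol II transcribes protein-coding genes and MIR genes. It assembles at the promoter, moves through the gene body and is released downstream of the site where the transcript is cleaved and polyadenylated. In ChIP-seq the number of reads over a gene body reflects how much polymerase was bound there when the tissue was fixed, whether it was moving or held. HYL1 is a double-stranded RNA-binding protein that helps DICER-LIKE 1 to cut miRNAs from their precursors.

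After reads with several possible places in the genome had been left out, the inputs held 15181698 reads in WT and 19502710 in hyl1-2, and the ChIP libraries held 32266083 and 26712389. The tissue label was compared with organ markers. The 7 leaf markers had ratios of ChIP to input of 0.628 to 1.17 in WT and 1.08 to 5.07 in hyl1-2. The 3 seed storage protein genes had higher ratios in WT, 1.61 to 2.37, and 0.968 to 1.16 in hyl1-2. The pollen gene VGD1 had 1.94 in WT and 1.37 in hyl1-2, and the 2 root genes had 1.02 to 1.37 and 0.779 to 0.967. In the library labelled WT ChIP, each leaf marker thus lay below each seed gene, which goes against its leaf label, whereas in hyl1-2 ChIP most leaf markers lay above the seed genes. Every value described below is a ratio against this WT library, and the part of its pattern in the results was not tested. The leaf marker RBCS1A, a gene for the small subunit of Rubisco, was itself a member at rank 213.

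The members were raised 3.82-fold to 9.99-fold, with a median of 4.99. All 300 had an interval above 1, as the rule required, against 23.3% of all genes tested (6193 of 26555). The median fold change of all genes tested was 0.936, and 31.5% of them had an interval below 1. These shares depended on the scaling. When RPM was scaled on the median intergenic window, every fold change was multiplied by 0.849, and 15.3% of the genes tested (4051) had an interval above 1 and 55.0% an interval below 1. A fold change above 2 was reached by 7.02% of the genes tested and one above 3 by 2.63%, and all members exceeded both.

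Most members had less ChIP than input in the library labelled WT ChIP and far more ChIP than input in hyl1-2. Their median ratio of ChIP to input was 0.746 in WT (range 0.228 to 1.75) and 3.89 in hyl1-2 (range 1.48 to 8.67), whereas for all genes tested the medians were 1.04 and 1.01. In WT, 68 members (22.7%) had more ChIP than input, compared with 55.0% of all genes tested, and none had a ratio above 2, compared with 2.39%. In hyl1-2, all 300 had more ChIP than input, compared with 51.0% of all genes tested, and 292 (97.3%) had a ratio above 2, compared with 5.39%. In the order of all genes tested, the median member stood at percentile 15.2 in WT and at percentile 98.5 in hyl1-2. The range in WT ran from percentile 0.0339 to percentile 94.9, so the members did not come from one narrow level of WT signal.

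**Figure D1:**
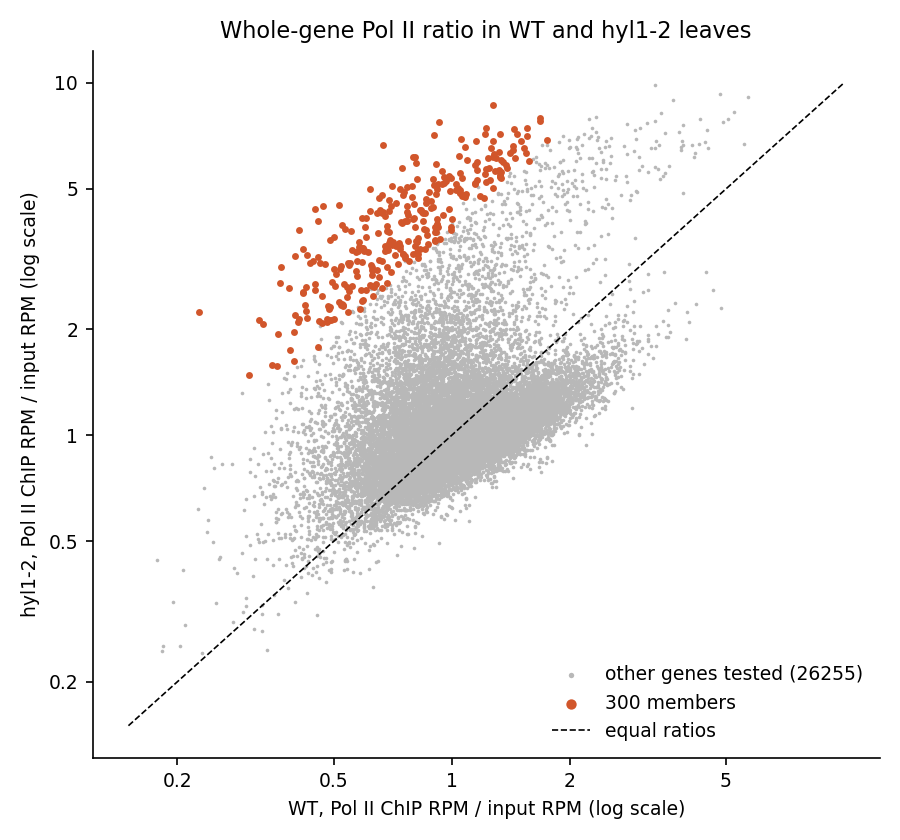
Ratio of RNA Pol II ChIP RPM to input RPM over the whole gene in WT (x axis) and in hyl1-2 (y axis), both on log scales, with 1 point per gene tested. The 300 members (orange) have WT ratios of 0.228 to 1.75 and hyl1-2 ratios of 1.48 to 8.67 and form the upper left edge of an arm of genes that are high in hyl1-2, and the dashed line marks equal ratios.

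In the plot of both ratios the members lay at the edge of a larger set of genes that are high in hyl1-2. Of 1432 genes with a ratio above 2 in hyl1-2, 1374 (95.9%) had a fold change with an interval above 1, and their median fold change was 2.75. Of 635 genes with a ratio above 2 in WT, 135 (21.3%) had an interval above 1, and their median was 0.676. The members made up 107 (35.7%) of the 300 genes with the highest ratios in hyl1-2 and none of the 300 with the highest ratios in WT. Those lists of 300 shared 78 genes (26% of each). The fold change is the hyl1-2 ratio divided by the WT ratio. Choosing genes by either ratio therefore pushes the shares, the medians and the members' overlaps in the direction seen. They are given as a description.

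The difference lay in the ChIP libraries. The members' ChIP RPM was 13.4 in WT and 68.7 in hyl1-2 at the median, and the ratio of hyl1-2 ChIP RPM to WT ChIP RPM had a median of 4.96 (range 3.44 to 9.43). Input RPM was 17.8 in WT and 17.9 in hyl1-2 at the median, and the ratio of the inputs ranged from 0.805 to 1.3. When the rule was applied without division by input, 267 of the 300 members were chosen again.

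The promoters of the 6 highest-ranked members are shown because these genes carry the largest differences. Each sequence is the 200 bp before the annotated 5′ end, written in the direction of the gene, with coordinates of TAIR10 and bases from the RefSeq genome sequence of that assembly. Capitals mark matches to short promoter motifs that were searched on both strands.
AT2G32150, chr2:13658688-13658887, plus strand: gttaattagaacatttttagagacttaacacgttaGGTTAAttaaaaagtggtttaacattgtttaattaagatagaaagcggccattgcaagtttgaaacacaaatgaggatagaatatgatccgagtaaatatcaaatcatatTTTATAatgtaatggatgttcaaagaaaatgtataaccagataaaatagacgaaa
EXL3 (AT5G51550), chr5:20940896-20941095, minus strand: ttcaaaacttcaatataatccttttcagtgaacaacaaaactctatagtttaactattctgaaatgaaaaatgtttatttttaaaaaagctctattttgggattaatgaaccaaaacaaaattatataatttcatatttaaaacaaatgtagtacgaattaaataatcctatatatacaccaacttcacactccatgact
AT1G07050, chr1:2165262-2165461, minus strand: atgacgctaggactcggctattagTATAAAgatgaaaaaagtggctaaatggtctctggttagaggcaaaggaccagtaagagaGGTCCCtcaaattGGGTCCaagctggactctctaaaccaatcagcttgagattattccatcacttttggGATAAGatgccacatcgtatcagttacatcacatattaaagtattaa
ARR4 (AT1G10470), chr1:3444361-3444560, minus strand: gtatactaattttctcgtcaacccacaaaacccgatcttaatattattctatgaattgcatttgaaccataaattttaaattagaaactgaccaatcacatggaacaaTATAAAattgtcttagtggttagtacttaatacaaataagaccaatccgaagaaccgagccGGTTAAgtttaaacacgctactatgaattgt
AT3G15630, chr3:5297852-5298051, minus strand: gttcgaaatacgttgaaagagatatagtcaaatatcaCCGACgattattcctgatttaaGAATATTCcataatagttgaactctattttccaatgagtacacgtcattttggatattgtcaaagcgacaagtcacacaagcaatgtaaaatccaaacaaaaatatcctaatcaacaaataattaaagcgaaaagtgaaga
AT1G56225, chr1:21045709-21045908, minus strand: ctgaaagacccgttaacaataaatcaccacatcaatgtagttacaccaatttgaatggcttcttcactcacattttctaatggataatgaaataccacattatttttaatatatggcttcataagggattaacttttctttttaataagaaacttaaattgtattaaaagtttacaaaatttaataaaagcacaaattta
AT2G32150 and ARR4 each had a TATA box (TATAAA or its reverse complement) and a GT-1 site (GGTTAA). AT1G07050 had an I-box, a TATA box and a pair of TCP sites. AT3G15630 had a DRE core and a heat shock element. EXL3 and AT1G56225 had no match, which says only that the letters searched were not in these windows.

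Across all members, the motif with the highest share of members relative to its share of all genes was the evening element (AAAATATCT), a sequence known from genes of the circadian clock that peak towards evening and from cold-responsive genes. It occurred in 20 of 300 members (6.67%) and in 1.92% of all genes tested. The 6 highest-ranked members with it are shown, each with the 10 bp on either side. Capitals mark the evening element, and those that read AGATATTTT hold it on the opposite strand.
AT1G54410, chr1:20310956-20310984, minus strand: tcatttaaaaAAAATATCTaaaagaaata
AIF1 (AT3G05800), chr3:1727001-1727029, plus strand: gtctatgagtAAAATATCTgttcaaatat
ADF5 (AT2G16700), chr2:7244382-7244410, plus strand: ataaatcgttAGATATTTTtaaaatatat
COR27 (AT5G42900), chr5:17199931-17199959, minus strand: ggacggtggaAGATATTTTgcagttgaag
AT1G32700, chr1:11827172-11827200, plus strand: gaattgaatcAGATATTTTtgatgtattt
MEE14 (AT2G15890), chr2:6922209-6922237, minus strand: taccaatctaAGATATTTTacaatcttat
AT1G54410 encodes the dehydrin HIRD11, a small hydrophilic protein of the kind that protects cells during water loss. AIF1 encodes a helix-loop-helix protein that restrains brassinosteroid growth responses, and ADF5 encodes an actin-depolymerizing factor. COR27 is a cold-regulated gene that also acts in the clock. AT1G32700 encodes a PLATZ transcription factor, and MEE14 was named for a defect of embryo development in its mutant. The other 14 members with the element included the clock gene PRR5, CCL, whose transcript oscillates with the clock, and the jasmonate repressor gene JAZ10.

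The share of members over the share of all genes was nearer to 1 or below 1 for the other motifs, although the TATA box and the I-box differed by more percentage points. The I-box (GATAAG), known from light-regulated genes, was found in 16.7% of members and 9.94% of all genes tested, and the TATA box was found in 48.7% and 41.0%. The site II element (TGGGCC), common in genes for ribosomal proteins and cell division, was found in 5.33% of members and 12.9% of all genes, and the telo-box (AAACCCTA) in 1 member (0.333%) and 3.72%. The G-box (CACGTG) was found in 6.33% and 5.75%, the CCA1 binding site (AAAAATCT) in 7.0% and 5.23%, the W-box core (TTGACC) in 12.7% and 10.4%, and the TCP site (GGNCCC) in 6.0% and 6.52%. The GT-1 site was found in 14% and 12.2%, the DRE core (CCGAC) in 13.0% and 10.1%, and the heat shock element (GAANNTTC) in 10.3% and 7.58%. The members' promoters were also poorer in GC (median 29% against 31.5%), so AT-rich motifs had more chances to match, and the part of base composition in these shares was not tested.

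The gene with the highest lower end was AT2G32150, which encodes a haloacid dehalogenase-like hydrolase. It had 317 and 362 reads in the inputs of WT and hyl1-2 and 450 and 3308 in their ChIP libraries. The fold change was 9.99 (95% interval 8.34 to 12), from a ratio of 0.668 in WT to 6.67 in hyl1-2. Of the 4 libraries only hyl1-2 ChIP stood apart, although WT ChIP was the larger ChIP library.

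EXL3, a relative of the brassinosteroid-induced growth gene EXO, had 246 and 303 reads in the inputs of WT and hyl1-2 and 234 and 1826 in their ChIP libraries, a fold change of 9.83 (7.92 to 12.2). AT1G07050, which encodes a protein with a CCT motif as found in CONSTANS and clock proteins, had 283 and 348 reads in the inputs of WT and hyl1-2 and 283 and 2132 in their ChIP libraries and a fold change of 9.51 (7.78 to 11.6). ARR4, a type-A response regulator that dampens cytokinin signalling, had 329 and 391 input reads and 320 and 2178 ChIP reads in WT and hyl1-2 and a fold change of 8.89 (7.37 to 10.7). In all 3 the WT ratio was below 0.5, that is, WT ChIP held less of the gene than WT input.

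AT3G15630, without a named function, had 196 and 212 reads in the inputs of WT and hyl1-2 and 170 and 1112 in their ChIP libraries and a fold change of 9.38 (7.29 to 12.1). It overlaps AT3G15635 on the other strand, also a member (7.10-fold). AT1G56225, an uncharacterized gene, had 153 and 182 input reads and 74 and 558 ChIP reads in WT and hyl1-2 and a fold change of 9.84 (7.11 to 13.6). Its WT ratio of 0.228 was the lowest of all members, and its interval was wide because WT ChIP held so few reads. It overlaps AT1G56220, a member with a dormancy/auxin associated product (6.63-fold).

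The dehydrin gene AT1G54410 (HIRD11) had 230 and 299 reads in the inputs of WT and hyl1-2 and 253 and 1843 in their ChIP libraries and a fold change of 8.70 (7.0 to 10.8). PIP2E, a plasma membrane water channel, had 445 and 505 input reads and 586 and 3450 ChIP reads in WT and hyl1-2 and a fold change of 8.05 (6.90 to 9.40). RALFL22, which encodes a secreted signalling peptide of the RALF family, had 267 and 373 input reads and 226 and 1650 ChIP reads in WT and hyl1-2 and a fold change of 8.11 (6.57 to 10). Stress protection, water transport and peptide signalling were thus each present among the 10 highest. The tenth, AT5G05600, a 2-oxoglutarate and Fe(II)-dependent oxygenase, had 380 and 473 input reads and 650 and 4000 ChIP reads in WT and hyl1-2 and a fold change of 7.67 (6.55 to 8.99).

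The next 10 had fold changes of 7.06 to 8.32. They were AT1G49500 (7.91), AT1G72510 (8.10) and AT2G20670 (7.72), none with an established function, the thaumatin-like pathogenesis-related gene AT1G75800 (7.64), the cation-binding plasma membrane protein gene PCAP1 (7.44) and AIF1 (8.16). They also included the pathogenesis-related CAP gene AT3G19690 (8.32), EXO (7.69), the auxin repressor gene IAA16 (7.22) and the RING finger gene AT1G02610 (7.06). AT3G19690 had the highest hyl1-2 ratio of the 20, 7.73, and a WT ratio of 0.929. No gene of the 20 had a WT ratio above 1, so each of them lay below its input in WT and above it in hyl1-2.

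**Figure D2:**
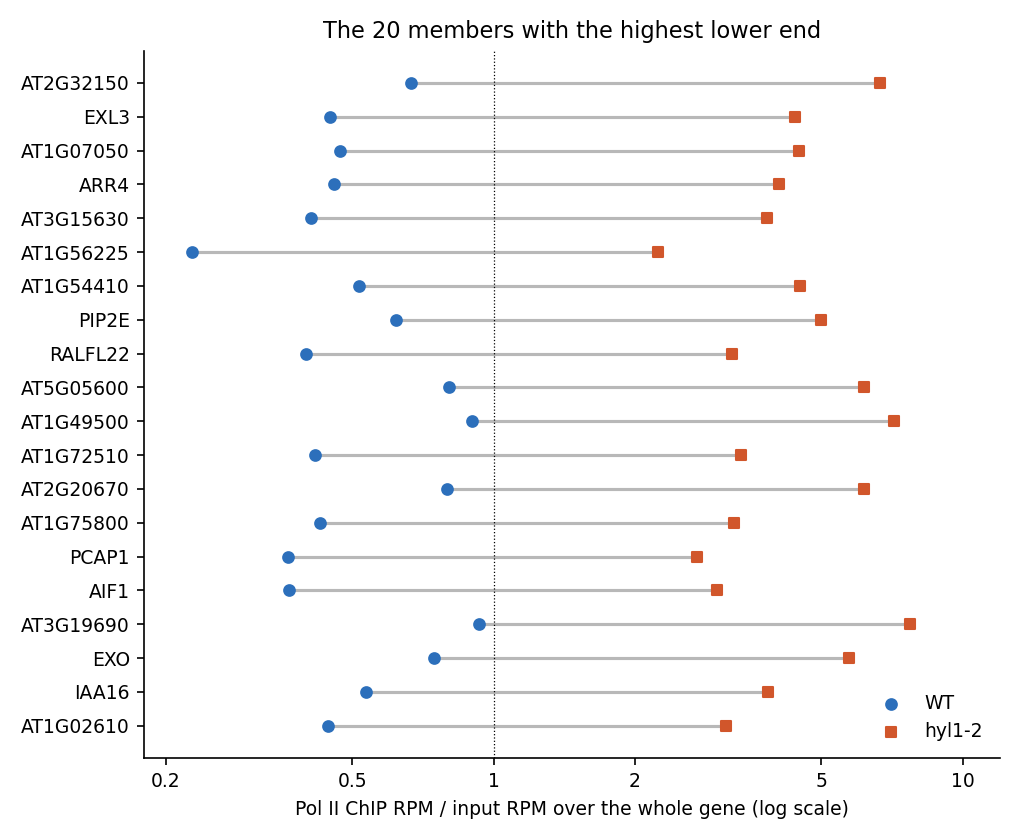
Ratio of RNA Pol II ChIP RPM to input RPM over the whole gene (log scale) in WT (blue circles) and hyl1-2 (orange squares) for the 20 members with the highest lower end of the interval, in rank order from the top. Every WT point lies below 1 (dotted line), from 0.228 for AT1G56225 to 0.929 for AT3G19690, and every hyl1-2 point lies above 2, from 2.24 for AT1G56225 to 7.73 for AT3G19690.

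The lowest WT ratios after AT1G56225 belonged to ICK1, an inhibitor of cyclin-dependent kinases (0.304 in WT, 1.48 in hyl1-2), and AT1G52720, an uncharacterized gene (0.322 and 2.13). The highest WT ratios belonged to LOX2, a chloroplast lipoxygenase at the start of jasmonate synthesis (1.75 in WT, 6.91 in hyl1-2), the uncharacterized AT5G56985 (1.68 and 7.97) and STP1, a sugar transporter of the plasma membrane (1.68 and 7.79). Similar fold changes, 4.88 for ICK1 and 4.75 for AT5G56985, were thus reached from WT signal below input and from WT signal above it. The largest of these genes, AT1G56225 (9.84) and AT1G52720 (6.60), had WT signal below input. AT5G56985 lies within AT5G56980 on the other strand, also a member (5.5-fold), and ChIP reads cannot be given to one strand.

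At the limit of the list the values were nearly equal. The last member, AT1G70420 (DUF1645), had a fold change of 4.08 and a lower end of 3.27, and the next gene, AT5G25210 (uncharacterized), had 3.97 and 3.27. HYL1 itself (AT1G09700) stood at rank 367 with a fold change of 3.62 (3.07 to 4.27) and was no member. Its ratio was 1.08 in WT and 3.90 in hyl1-2.

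The rise covered the whole transcribed region and was highest at its 3′ end. When each gene was divided into 3 parts of equal length, the median fold change of the members was 4.58 in the first part, 4.83 in the middle part and 5.77 in the last part, compared with 1.01, 0.882 and 0.931 for all genes tested. The last part had the highest fold change in 173 of 299 members, the first part in 77 and the middle part in 49. In the last 200 bp the median was 7.05, and in the 200 bp downstream of the annotated 3′ end it was 7.2, compared with 1.14 and 1.28 for all genes. These windows lie within or beside the region that chose the members and are given as a description.

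Outside the gene the difference faded, more slowly downstream than upstream. In the 200 bp upstream of the 5′ end the members' median fold change was 3.82 (264 genes with enough reads), and from 1000 to 500 bp upstream it was 1.54. From 500 to 1000 bp downstream it was still 3.11. For all genes tested the medians of these windows were 1.32, 1.04 and 1.02.

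**Figure D3:**
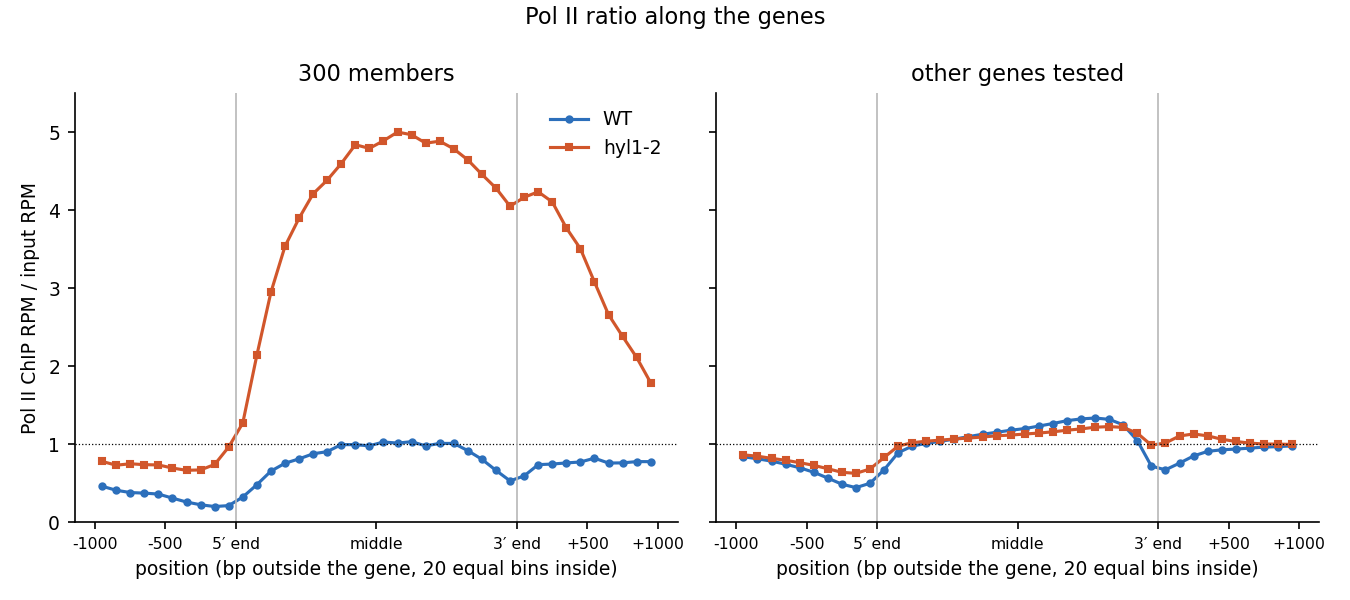
Ratio of RNA Pol II ChIP RPM to input RPM, with reads summed over genes, in bins of 100 bp from 1000 bp upstream to the 5′ end, in 20 equal bins within the gene and in bins of 100 bp to 1000 bp downstream, for the members and for the other genes tested. In the members hyl1-2 (orange squares) rises to 5.01 within the gene and is 4.24 in the second bin downstream, whereas WT (blue circles) stays at or below 1.03, and in the other genes the lines differ most at the gene ends, with 0.673 in WT and 1.02 in hyl1-2 in the first bin downstream.

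The plot along the genes shows where WT and hyl1-2 differed in shape. With reads summed over the members, the WT ratio was lowest at 0.203 between 200 and 100 bp upstream, rose to 1.03 in the gene and dropped to 0.532 in the last bin before the 3′ end. In hyl1-2 it was 0.742 at the same place upstream, rose to 5.01 and was still 4.05 in the last bin. In the farthest bin, which ends 1000 bp downstream, it was 1.79 in hyl1-2 and 0.778 in WT. In the other genes tested the ratio rose to 1.34 in WT and 1.23 in hyl1-2 and was 0.721 and 0.99 in the last bin. The dip at the 3′ end was thus smaller in hyl1-2 than in WT, relative to the gene, in the members and in the other genes alike.

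The members were somewhat shorter than the genes tested as a whole (median 1792 bp against 2115 bp), had fewer exons (3 against 4) and a lower GC content (37.6% against 38.8%). Their positions on the chromosomes followed those of all genes only roughly. Chromosome 1 held 91 members (30.3%, against 26.2% of the genes tested), chromosome 2 held 49 (16.3% against 15.5%), chromosome 3 held 63 (21.0% against 20%), chromosome 4 held 36 (12% against 15.3%) and chromosome 5 held 61 (20.3% against 23.0%).

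Some members were neighbours, with 53 members (17.7%) next to another member in 27 pairs. In 11 pairs the genes overlapped, in 7 they were at most 500 bp apart and in 9 farther. The pairs included duplicated genes side by side, PGIP1 and PGIP2 (6.01 and 6.48), which encode inhibitors of fungal polygalacturonases, and AOC2 and AOC3 (4.13 and 3.95), which encode allene oxide cyclases of jasmonate synthesis. They also included unlike genes that overlap, for example the nitrogen-related regulator BT5 (5.39) with AT4G37608 (4.39), and the water channel gene DELTA-TIP (5.07) with PnsB3 (6.26). The 527 other neighbours of members had a median fold change of 1.14, and 242 of them (45.9%) had an interval above 1, compared with 23.3% of all genes tested (34.9% and 15.3% under intergenic scaling). A total of 65 members (21.7%) overlapped another gene, against 28.5% of all genes tested, and reads in the shared stretch were counted for both.

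By what their products do, the members were sorted by hand into 19 roles. A gene with a general or uncharacterized product name may belong to another role. The largest role held 59 genes for which the annotation named no function. The next were 33 transcription factors outside the hormone and clock groups, 23 genes of the cell wall, 19 of protein breakdown and folding, 17 of defence, 17 of hormones other than jasmonate, 16 other enzymes, 15 of jasmonate and 14 of photosynthesis and the chloroplast. No symbol was given for 133 members. The median fold change differed little between roles, from 4.33 for RNA, chromatin, translation and the cell cycle to 6.02 for hormones other than jasmonate, with wide overlap.

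**Figure D4:**
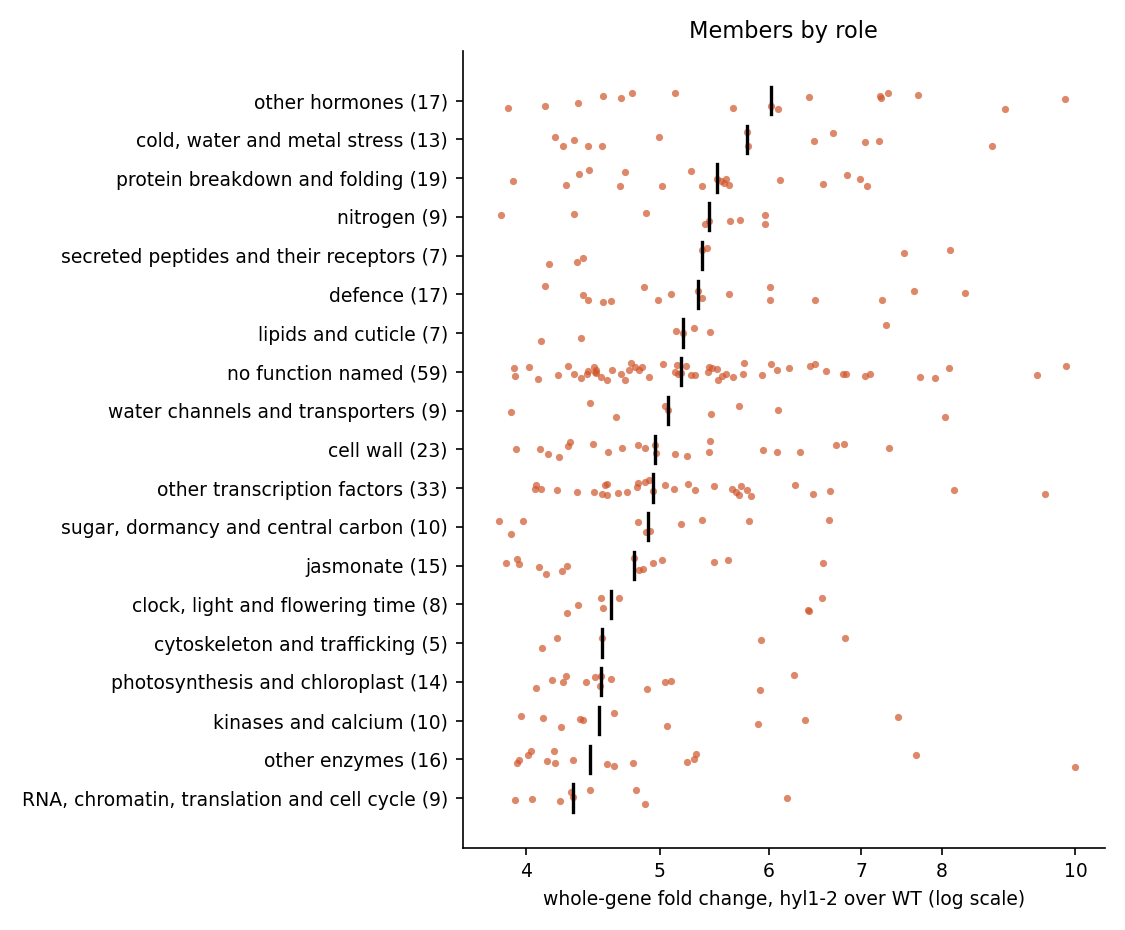
Whole-gene fold change of hyl1-2 over WT (x axis, log scale) for each of the 300 members, grouped by the role of the product with the number of genes in parentheses; the black bar marks the median of the role. The medians run from 4.33 (RNA, chromatin, translation and cell cycle) to 6.02 (other hormones), and the points of all roles overlap.

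The hormone genes other than jasmonate held many repressors and receptors. Auxin genes included the Aux/IAA repressors IAA16, IAA2 (7.23) and IAA18 (4.36), the F-box gene AUF1 (6.02) and AT1G72430, which encodes the small auxin-up protein SAUR78 (6.09). Cytokinin genes were the type-A regulators ARR4, ARR5 (annotated as RR5, 6.41) and ARR6 (4.68), LOG1, an enzyme that releases active cytokinin (3.88), and AT3G59940 (KMD4, 5.13), an F-box protein that targets cytokinin-response transcription factors. The abscisic acid receptor genes PYL5 (7.32), PYR1 (4.55) and PYL4 (4.13) were members, as was AT3G03990, the strigolactone receptor gene D14 (5.65). The median ratios of the 17 genes of this role were 0.508 in WT and 3.45 in hyl1-2, beside 0.746 and 3.89 for all members. All but 1 had a WT ratio below 1, as had most members. The exception was KMD4, with 1.44 in WT and 7.38 in hyl1-2.

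Jasmonate was the hormone with the most members. Jasmonate is a lipid hormone of wounding and defence, and JAZ proteins repress its target genes until jasmonoyl-isoleucine leads to their breakdown. For synthesis and conjugation, LOX2 (3.94), AOC2, AOC3 and JAR1 (4.86), which joins jasmonate to isoleucine, were members. For turnover, CYP94C1, which oxidizes jasmonoyl-isoleucine, and ILL6, which cleaves it (5.47), were placed in this role. Of the 15 genes so placed, CYP94C1 had the highest fold change (6.56, 5.49 to 7.84). It had 286 and 351 reads in the inputs of WT and hyl1-2 and 641 and 3326 in their ChIP libraries. Oxygenase genes with only a general product name, such as AT5G05600, were placed with other enzymes. As repressors, JAZ10 (5.6), JAZ7 (4.94), JAZ6 (4.83), JAZ8 (4.79), JAZ5 (4.28), JAZ9 (annotated as TIFY7, 4.25) and JAZ1 (4.09) were members, with AIB (JAM1, 3.87), a helix-loop-helix repressor, and AT3G22160 (JAV1, 5.02), a repressor of jasmonate defence. Genes that make the hormone and genes that shut its response down were thus raised side by side.

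The jasmonate genes also stood higher in WT than the other members. Their median ratio was 1.22 in WT and 5.24 in hyl1-2, against 0.746 and 3.89 for all members, and only 5 of the 15 had a WT ratio below 1. JAZ1 went from 1.54 to 6.31, with 308 and 346 reads in the inputs of WT and hyl1-2 and 1011 and 2991 in their ChIP libraries. JAV1 was an exception at the low end, from 0.429 to 2.15.

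The families of the members were examined in full, including relatives that were no members. The exception was the LBD family, of which only LBD37 to LBD39 were taken. Of all 26555 genes tested, 300 were members and 23.3% had an interval above 1 (15.3% under intergenic scaling). Of 13 JAZ genes, 7 were members and 11 had an interval above 1, with the non-members between 0.814 (JAZ4) and 3.68 (TIFY10B). Of 11 jasmonate synthesis genes, 4 were members and 10 had an interval above 1, and the lowest was LOX6 (1.04). In these families most genes were raised, and the members were only the highest of them.

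Of 5 BTB-TAZ genes, which encode adaptor proteins with a role in nitrogen use, BT2 (5.96), BT4 (5.43), BT5 (5.39) and BT1 (4.89) were members, whereas BT3 had 0.903. Of the 3 related LBD genes that repress nitrate-responsive genes, LBD37 (5.96) and LBD38 (5.71) were members, and LBD39 had 3.09. Of 3 CP12 genes, which encode small regulators of the Calvin cycle, CP12-1 (4.89) and CP12-2 (4.49) were members, and CP12-3 had 2.02. These small sets were looked up because they hold members. Of the genes listed in them, all but BT3 had an interval above 1.

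In other families the members were a minority, although a larger share than the 300 of all 26555 genes tested. The families were looked up because they hold members. An interval above 1 was found in 23.3% of all genes tested. Of 29 Aux/IAA genes 3 were members and 13 had an interval above 1, of 14 PYR/PYL receptor genes 3 and 7, of 10 type-A response regulator genes 3 and 6, and of 32 RALF genes with enough reads 3 and 6. RALFL22, RALFL33 (7.51) and RALF23 (5.37) had high fold changes in a family whose median was 0.969. The EXORDIUM family had 2 members of 8, EXL3 and EXO, and 6 with an interval above 1. Of 13 plasma membrane and 10 vacuole membrane water channel genes, 2 each were members, PIP2E and PIP2A (5.45), and TIP2 (6.09) and DELTA-TIP, and 9 and 4 had an interval above 1. In these families most genes were no members. Under intergenic scaling the families in which the count with an interval above 1 changed were Aux/IAA (11), PYR/PYL (6), type-A response regulators (5) and plasma membrane water channels (8).

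**Figure D5:**
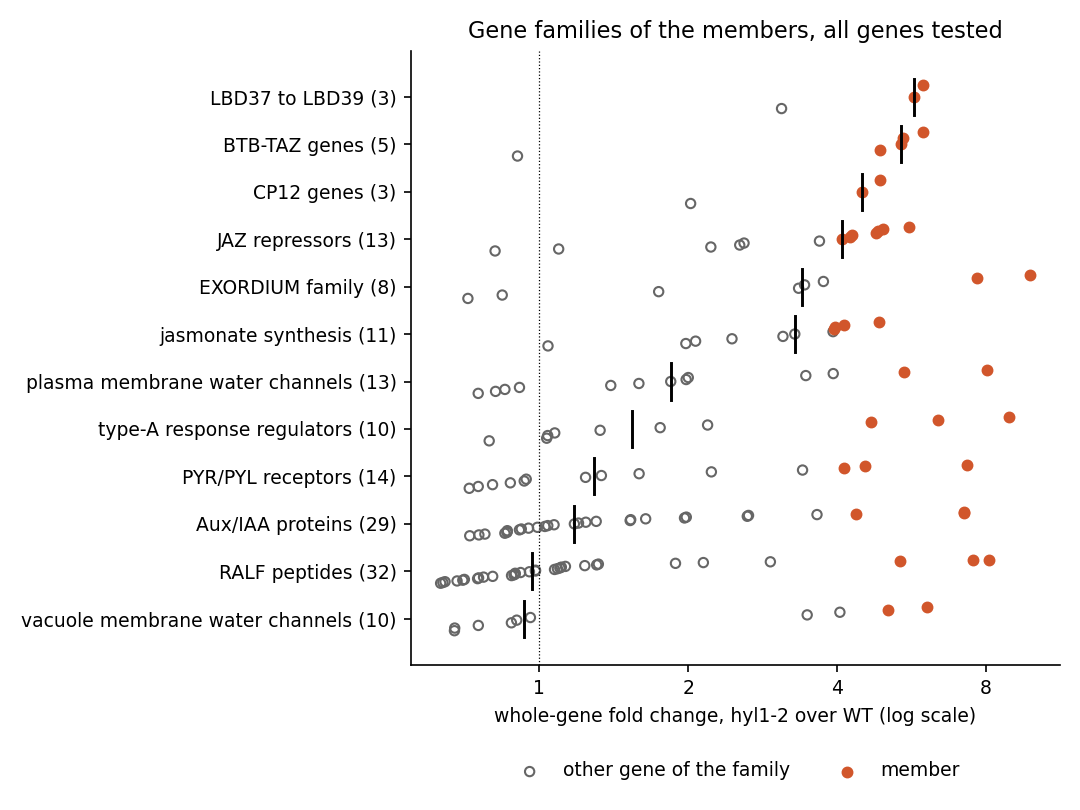
Whole-gene fold change of hyl1-2 over WT (x axis, log scale) for every tested gene of 12 families, with members filled and other genes open; the black bar is the median of the family, the dotted line marks 1, and the number of genes tested is in parentheses. The medians run from 0.930 for vacuole membrane water channels to 5.71 for LBD37 to LBD39.

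The other genes placed by hand in the nitrogen role were GDH2 (5.63), a glutamate dehydrogenase, ARGAH2 (4.34), an arginase, and NRT1.7 (3.84). NRT1.7 is a nitrate transporter that moves nitrate out of older leaves. Sugar and dormancy genes included the sugar-repressed DIN10 (5.18) and DYL1 (4.89), the trehalose-phosphate synthase-like gene TPS8 (5.37), the vacuolar invertase gene ATBETAFRUCT4 (3.90) and the cytosolic fumarase gene FUM2 (4.92). BT2 went from 1.15 in WT to 6.86 in hyl1-2 on 428 and 592 reads in the inputs of WT and hyl1-2 and 1047 and 5562 in their ChIP libraries. Some of these genes, such as DIN10, are known from leaves that run low on carbon, whereas LBD37 and LBD38 repress nitrate-responsive genes. The carbon and nitrogen state of the leaves was not tested.

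Genes placed by hand in the role of clock, light and flowering time were few, with 8 members, but well known. They were COR27 (6.42), PRR5 (4.36) and CCL (4.55), the B-box genes BBX14 (6.40), BBX15 (4.53) and COL5 (6.55), PIF5 (annotated as PIL6, 4.68), a phytochrome-interacting factor, and TEM1 (4.29), a repressor of flowering. COR27 had 348 and 406 reads in the inputs of WT and hyl1-2 and 492 and 2374 in their ChIP libraries. COR27, PRR5 and CCL were the 3 of this role with the evening element.

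Stress genes went beyond HIRD11. RCI2A (7.21), a small membrane protein of the cold response, KIN2 (4.54), COR413-PM1 (5.0), HVA22D (5.80), OXS3 (5.78), linked to tolerance of oxidative stress, the metallothionein gene MT2A (4.25) and the zinc finger gene SAP5 (4.33) were members. KIN2 and MT2A had WT ratios of 1.56 and 1.38, and the other 11 genes of the role had WT ratios below 1, as had most members. RCI2A overlaps other genes and shares a stretch with APC11 (5.36), a subunit of the ubiquitin ligase of the cell cycle.

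Cell wall genes included both structural proteins and enzymes. LRX3 (6.8), a leucine-rich repeat extensin, had 383 and 438 reads in the inputs of WT and hyl1-2 and 1038 and 5200 in their ChIP libraries and the highest hyl1-2 ratio of all members, 8.67. EXGT-A3 (6.71), an enzyme that cuts and rejoins xyloglucan, GAE6 (6.32), which makes a sugar precursor of pectin, TSD2 (5.23), PME3 (5.13), a pectin methylesterase, BXL1 (4.97), a beta-xylosidase, BGAL1 (4.59), a beta-galactosidase, and PARVUS (4.15), needed for xylan, acted on different wall polymers. BGAL1 had the most reads of any member in hyl1-2 ChIP, 8631, against 2284 in WT ChIP. Pectin and xyloglucan genes were thus both present.

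Defence genes included the pathogenesis-related genes named above, DMR6 (6.01), an oxygenase that removes salicylic acid, PGIP2 and PGIP1, BGLU18 (5.61), a glucosidase that frees abscisic acid, and HIR2 (4.13), a hypersensitive induced reaction protein. Among secreted peptides and receptors, LLG1 (4.36), a partner of the receptor kinase FERONIA in RALF signalling, and AT1G72180 (CEPR2, 4.16), a receptor kinase, stood beside the RALF genes. Protein breakdown genes held AT1G02610, the F-box gene AT1G23390 (6.98), the autophagy gene ATG8E (5.51), the ubiquitin gene UBQ3 (4.72) and the ubiquitin ligase genes PUB9 (4.28) and CMPG1 (4.37). UBQ3 belongs to a family of near-identical repeats, for which reads with several places were left out.

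The remaining transcription factors included regulators of growth and of stress. AIF1 (8.16), HBI1 (4.88) and BEH1 (5.71) belong to brassinosteroid signalling. TCP14 (5.79), OBP4 (6.65) and the homeobox genes HB5 (4.82), HB6 (4.66) and HAT1 (4.58) were also members. NAC3 (5.24), RD26 (4.21), ERF2 (5.12), DREB26 (4.10) and AT5G61590 (DEWAX, 5.68), a repressor of wax synthesis, are known from stress or surface wax. AIF1 had 200 and 214 reads in the inputs of WT and hyl1-2 and 156 and 878 in their ChIP libraries. Of the 33 genes, 28 had a WT ratio below 1.

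The 14 photosynthesis and chloroplast genes had fold changes of 4.07 to 6.26. PnsB3 (6.26), a subunit of the chloroplast NADH dehydrogenase-like complex, J8 (5.91), a chloroplast co-chaperone, CP29 (5.10), a chloroplast RNA-binding protein, PSAD-1 (5.04), a subunit of photosystem I, RBCS1A (4.54) and the plastocyanin genes DRT112 (4.53) and PETE1 (4.42) were members. RBCS1A had 260 and 298 reads in the inputs of WT and hyl1-2 and 347 and 1163 in their ChIP libraries. All 7 leaf markers, which are photosynthesis genes, had an interval above 1, but by different amounts: RBCS1A, then CAB1 (4.34, rank 315) and PSBO1 (2.56), and LHCA1, GAPA, CA1 and RCA at 1.25 to 1.55. By product name, photosystems, light harvesting and electron transport were 1.0% of members (3 genes) and 0.478% of all genes tested, and 53.5% of the 127 genes of that group had an interval above 1.

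Lipid and cuticle genes included KCS1 (5.14), which elongates fatty acids for wax, CYP86A2 (5.20), which acts in cutin synthesis, and ADS2 (5.44), a desaturase. Kinase and calcium genes included PCAP1, CIPK21 (6.38) and SIP4 (4.63), the last 2 being CBL-interacting protein kinases. PATL1 (5.92) and PATL2 (4.54), which act in membrane trafficking, and ADF5 (6.81) represented trafficking and the cytoskeleton. ATCTH (6.18), a CCCH zinc finger protein, the histone H2B gene HTB9 (4.80) and the cell cycle inhibitor genes ICK1 (4.88) and LGO (4.33) were members of the role on RNA, chromatin, translation and the cell cycle.

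When the product names in the annotation were sorted by fixed words into groups, some groups took a larger share of the members than of all genes tested. Hormone genes other than auxin were 3.33% of members (10 genes) and 0.380% of all genes tested, and 9.90% of that group were members. Transcription factors were 11.3% (34 genes) and 6.99%, cell wall and cuticle genes 5.67% (17 genes) and 2.77%, stress genes 4.33% (13 genes) and 1.59%, and circadian clock and light genes 1.67% (5 genes) and 0.414%. These shares are a description. The sorting by words places some products wrongly, such as the repressor AIF1 among trafficking genes, and counts in small groups are uncertain for that reason.

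Other groups took a smaller share. For transport across membranes the shares were close, 3.0% of members (9 genes) and 3.62% of all genes tested. Defence and immunity genes by product name were 1.67% of members (5 genes) and 2.71% of all genes tested. The 17 members placed in defence by hand have no such share of all genes beside them. Protein kinases and receptors were 2.00% of members (6 genes) and 5.70% of all genes tested, RNA binding and processing 1.33% (4 genes) and 4.21%, ribosome and translation 1.33% (4 genes) and 2.52%, and ubiquitin and protein breakdown 5.0% (15 genes) and 6.8%. No member fell into chlorophyll and carotenoid metabolism or into glucosinolates and other secondary metabolism. These groups held 49 and 104 genes, 0.185% and 0.392% of all genes tested, and are too small for an absence to be read. Products without a function in the name were 11% of members and 12.2% of all genes tested. Products that matched no group were 32.3% of members and 29.8% of all genes tested. The 59 members without a named function were counted by hand, and no such count was made for all genes.

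The notes of the annotation gave a similar picture by place. The vacuole was named for 19 members (6.33%, against 1.67% of all genes tested), the cell wall for 13 (4.33% against 0.859%), the plasma membrane for 30 (10% against 6.31%) and the chloroplast for 40 (13.3% against 9.69%). The endomembrane system was named for 27 (9.0% against 13.2%). A response to salt stress was noted for 16 members (5.33% against 0.900%) and a response to cold for 6 (2.00% against 0.505%). The notes are more complete for well-studied genes, although no process was named for about the same share of both (41.0% and 41.9%).

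Because HYL1 acts in the making of miRNAs, the targets of miRNAs were looked up among the members. Of 82 known target genes listed, 76 were tested. HAM1, HAM2, SPL2, SPL13A and SPL13B were left out because their symbols could not be matched to 1 gene each. Of the 76 genes, 1 was a member, beside 300 of all 26555 genes tested. A count this small does not tell whether targets were rarer or commoner among the members. The gene was RAP2.7 (TOE1), an AP2-type repressor of flowering that is a target of the miR172 family. It had 455 and 535 reads in the inputs of WT and hyl1-2 and 571 and 1758 in their ChIP libraries, a fold change of 4.06 (3.47 to 4.75). Of the 76 genes, 21 (27.6%) had an interval above 1, beside 23.3% of all genes tested. An interval below 1 was found in 24 of the 76, beside 31.5% of all genes tested. The median fold change of the targets was 0.972, beside 0.936 for all genes tested. Under intergenic scaling 14 targets (18.4%) had an interval above 1 and 40 (52.6%) had one below 1, beside 15.3% and 55.0% of all genes tested.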

How the data were processed

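RNA Pol II ChIP-seq and input DNA were analysed from leaves of WT and hyl1-2, with 1 library each. Alignment of the trimmed reads to TAIR10 was done by the authors in Bowtie (options −M1 and −n2), followed by removal of duplicates in SAMtools and by extension. bedtools is named in the submitters' processing notes, and tool versions are not given in the sources used here. The deposited interval files hold 1 line per read, with the score that the authors gave in column 5, taken here as mapping quality. Reads with a score of 0 (11.9% to 14.4% of reads in 3 libraries and 14.5% in WT ChIP), taken as reads with several places in the genome, were left out. Deposited intervals were 175 bp long in the inputs and 200 bp in ChIP and reached towards higher coordinates on both strands.

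Reads were counted where the interval overlapped a gene by at least 1 bp, in Python 3.11.15 with NumPy 2.4.6, pandas 2.3.3 and SciPy 1.17.1, and plotted with Matplotlib 3.10.9. RPM used reads with a score above 0 as the total. The 95% interval of the fold change came from the 4 read counts. Windows within and around genes needed at least 10 reads in each library. Gene positions, product names and promoter bases came from the RefSeq TAIR10.1 annotation and genome, whose nuclear chromosomes match TAIR10 in length. Profiles used the middle of each read after extension along its own strand. The counting was tested on simulated data.

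The members and all lists (roles, families, product groups, motifs, markers and miRNA targets) were chosen with earlier results of these data known, and roles were given by hand to each of the 300 genes. Genes named by rule were the 20 with the highest lower end, up to 6 per product group, those at the limit, HYL1, miRNA targets and the 3 highest and 3 lowest WT ratios. Genes named by role or family were chosen after their values were seen. Alternatives were other reads, strands, counting rules, totals, scaling on the median of intergenic windows (200 bp long and 1000 bp or more away from genes), minimums, a GC correction, no division by input and genes without overlaps.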

Additional observations from a re-analysis of the deposited data

How the results depend on the processing

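No paired analysis was possible because there was 1 library per genotype and kind, and for the same reason no library could be left out. The median fold change of the members was 4.99 and was 4.24 to 5.26 under 12 alternatives. As a yardstick, an interval of this median (4.83 to 5.16) was taken from the rank order of the 300 fold changes. It treats the chosen genes as the sample and does not measure the uncertainty of a difference between genotypes. The median moved beyond it to 5.26 with a GC correction and to 4.24 when RPM was scaled on the median intergenic window. The count of genes with an interval above 1 (6193) was 4051 to 7688 under 14 alternatives, with 4051 under intergenic scaling, a change of over 1.5 times, and 4080 among the 18991 genes that overlap no other gene, where fewer genes were tested (21.5% of them). The cause of the other changes was not tested. Between 235 and 297 of the 300 members were found again under 12 alternatives, the lowest number when genes with overlaps were left out. In an alternative chosen after seeing the data, 300 genes were chosen on plus-strand reads and measured on minus-strand reads. Their median was 4.86, all 300 were above 2 and the lowest was 2.62. Both strands come from the same libraries, so this bears on counting error and not on variation between plants.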
